A study of Mus musculus with 2 samples.

Results

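The enzymes that write, copy and remove DNA methylation were followed here through 8 genes: Dnmt1, Uhrf1, Dnmt3a, Dnmt3b, Dnmt3l, Tet1, Tet2 and Tdg. They were found by gene symbol, and all 8 occur among the 32285 genes listed. The cells were E14 mouse embryonic stem cells of 129/Ola background, an established line derived from the early embryo. They were grown in fetal bovine serum with leukaemia inhibitory factor, a cytokine that holds stem cells undifferentiated. The control library came from cells given a control small interfering RNA (siRNA), and the sonKD library from cells given siRNA against Son, which encodes a large RNA-binding protein of nuclear speckles. Both groups received the same Lipofectamine transfection, and cells were collected after 24 hours, frozen, thawed and sorted for exclusion of 7-AAD, a dye that enters dead cells. Each group held 1 library on the 10x Genomics 3′ platform, so no difference below has a replicate check and no p-value is given. The number of separate cultures behind a library is not given in the sources used here, and the line is a single one.

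Methylation of cytosine in CpG dinucleotides is copied after replication by DNMT1, which UHRF1 brings to hemimethylated DNA. DNMT3A and DNMT3B set new methylation, and DNMT3L, which has no catalytic activity of its own, stimulates them. TET1 and TET2 oxidise 5-methylcytosine, and the glycosylase TDG cuts out the most oxidised forms so that base excision repair can restore an unmodified cytosine. Mouse embryonic stem cells in serum are known to express both arms strongly. In the naive state, the one closest to the inner cell mass, methylation is low, while in the formative state that follows it is high.

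A barcode counted as a cell if it held 2500 or more UMIs (unique molecular identifiers, each marking 1 captured molecule) and 1000 or more genes, and if mitochondrial UMIs made up no more than 10%. This left 4978 cells in control and 2731 in sonKD, and 2 barcodes occurred in both. Median UMIs per cell were 7737.5 in control and 11612 in sonKD, so sonKD cells held more UMIs each. Over all barcodes, control had 71046373 UMIs and sonKD 60352438. The cause of the difference per cell was not tested. The share of UMIs from ribosomal protein genes was 19.1% (control) and 22.4% (sonKD). Of barcodes past the UMI and gene minimums, 11.2% in control and 27.9% in sonKD exceeded the mitochondrial limit. Their part in the differences below was not tested. Son itself was at 169 CPM (counts per 1000000 UMIs, summed over cells) in control and 106 CPM in sonKD, a log2 ratio of -0.67 (95% interval -0.73 to -0.61). All 7 stem cell markers checked were present, with summed levels of 8025 and 8788 CPM, whereas the lists for 5 other cell types each summed to at most 7.68 CPM. Among those, Elf5, Neurog1, Col3a1 and Lum had no UMI in either library.

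All intervals are at 95% and cover counting error only. Levels of different genes are not ranked against each other, because 3′ counts were not divided by a length and capture differs between transcripts.

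The maintenance pair stood apart from the other members in sonKD. Dnmt1, which encodes the maintenance methyltransferase, was at 185 CPM (180 to 189, 7552 UMIs) in control and 131 CPM (127 to 135, 4182 UMIs) in sonKD. Uhrf1, whose product reads hemimethylated CpG and recruits DNMT1, was at 159 CPM (155 to 163, 6493 UMIs) in control and 105 CPM (102 to 109, 3375 UMIs) in sonKD. For both genes the intervals of the libraries were far apart. The log2 ratio of sonKD over control was -0.50 (-0.56 to -0.44) for Dnmt1 and -0.59 (-0.65 to -0.53) for Uhrf1. Only 2.38% and 1.15% of the 8063 genes that averaged 10 CPM or more had a lower ratio than Dnmt1 and Uhrf1. A difference of 1.3-fold, or 0.38 on the log2 scale, was used as the mark for naming. Over those 8063 genes, 6.02% were lower in sonKD past that mark and 2.64% were higher, with a median log2 ratio of -0.12. Of the 8 members, 2 were lower past it (Dnmt1 and Uhrf1) and none was higher, with a median of -0.085.

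**Figure D1:**
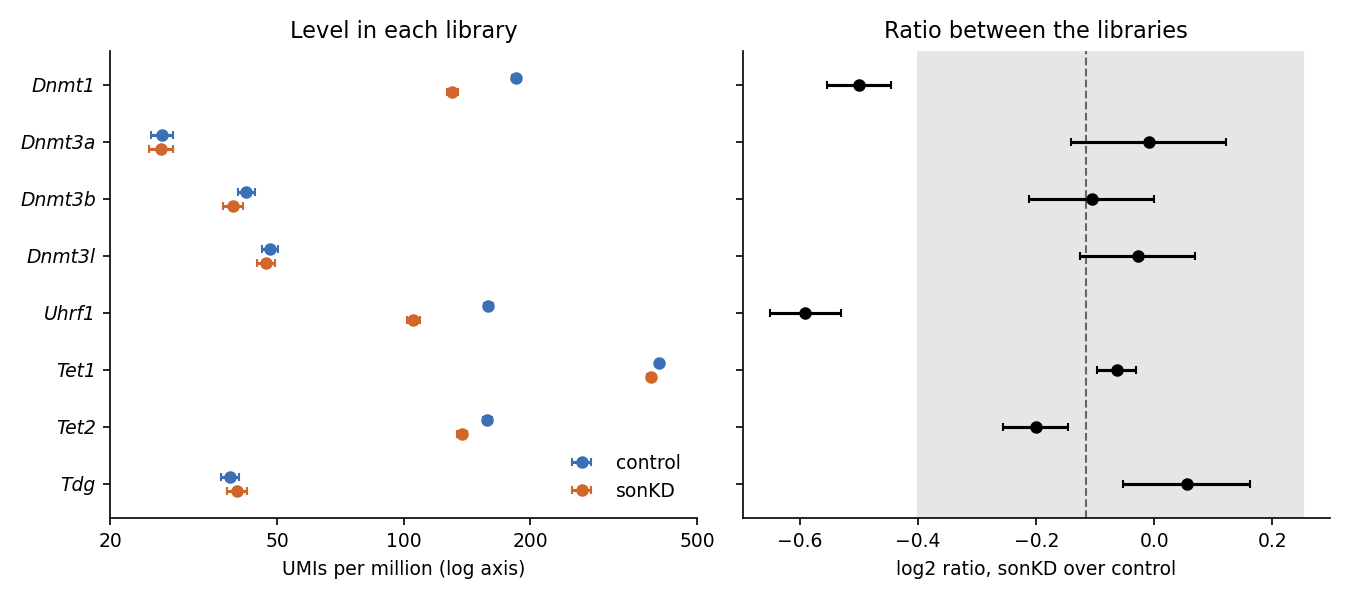
Levels of the 8 members over all cells of each library (left, CPM on a log axis, 1 point per library) and their log2 ratio of sonKD over control (right). Bars are 95% counting intervals, the dashed line is the median of all genes (-0.12) and the grey band holds the middle 90% of them (-0.40 to 0.25). Dnmt1 (-0.50) and Uhrf1 (-0.59) lie to the left of the band, and the other 6 members lie between -0.20 and 0.055.

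The de novo group did not share that shift. Dnmt3a, a catalytic methyltransferase, was at 26.6 CPM (25.0 to 28.2) in control and 26.4 CPM (24.7 to 28.3) in sonKD, a log2 ratio of -0.0090 (-0.14 to 0.12). Dnmt3b, the other catalytic enzyme, was at 42.2 CPM (40.2 to 44.2) and 39.2 CPM (37.0 to 41.4), a log2 ratio of -0.11 whose interval ran from -0.21 to -0.00049. The accessory factor Dnmt3l was at 47.9 CPM (45.8 to 50.1) and 47.0 CPM (44.6 to 49.4), a log2 ratio of -0.028 (-0.13 to 0.07). Levels of these 3 genes overlapped between the libraries, and each log2 ratio lay within the middle 90% of all genes (-0.40 to 0.25).

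On the demethylation side, Tet2 was the lowest relative to control. This dioxygenase gene was at 158 CPM (154 to 162) in control and 138 CPM (134 to 142) in sonKD, a log2 ratio of -0.20 (-0.26 to -0.15). The intervals did not overlap, but 29.8% of all genes had a lower ratio, so the shift was a common one. Tet1, the other dioxygenase measured, was at 405 CPM (399 to 411) and 387 CPM (380 to 394), with a log2 ratio of -0.064 (-0.10 to -0.03). That ratio lay above the median of all genes, and its sign depended on scaling: it was 0.026 with TMM factors and 0.0070 without mitochondrial and ribosomal protein genes. Tdg, the glycosylase gene, was at 38.5 CPM (36.6 to 40.5) and 40.0 CPM (37.8 to 42.2), a log2 ratio of 0.055 (-0.05 to 0.16).

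Because the libraries differed in UMIs per cell, every cell was also thinned to 2500 UMIs. The share of cells with at least 1 UMI was then counted. Dnmt1 was found in 35.5% of control cells (exact binomial interval 34.2 to 36.9%) and 24.6% of sonKD cells (23.0 to 26.3%). Uhrf1 was found in 30.2% (28.9 to 31.5%) and 21.3% (19.8 to 22.9%), and Tet2 in 29.7% (28.4 to 31%) and 26.6% (24.9 to 28.3%). These 3 members had intervals that lay apart, each lower in sonKD, as did 15.6% of the 8063 genes, while none was higher, against 4.81% of genes. With thinning to 5000 UMIs the count was 2, and Tet2 was found in 49.6% of control and 46.3% of sonKD cells with overlapping intervals. Tet1 was found in 58.3% and 57.1% of thinned cells, and Dnmt3a, Dnmt3b, Dnmt3l and Tdg in 5.90% to 10.7% across both libraries. Without thinning the shares were 71.4% and 68.1% for Dnmt1, 65.4% and 61.7% for Uhrf1, 62.8% and 69.6% for Tet2, and 88.1% and 92.3% for Tet1. The order for Tet2 and Tet1 thus turned with thinning, and 6 members had a higher share in sonKD without thinning, where sonKD cells held more UMIs. Shares over all genes were not counted without thinning or at 5000 UMIs, so those counts are not read as results about the members. A share of thinned cells without a UMI is not a share of cells that lack the transcript.

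Variation of the members among cells was described gene by gene. The variance of thinned UMIs divided by their mean, which is 1 for counting error alone, had a median of 1.04 in both libraries over the 3663 genes that averaged 0.1 UMI or more per cell. Tet1 stood at 1.26 in control and 1.32 in sonKD, on means of 0.98 and 0.96 UMI per cell. The median means of those genes were 0.23 and 0.21. The excess over 1 can grow with the mean, so the members are not ranked by it. Tet2 stood at 1.18 and 1.10, Uhrf1 at 1.06 and 1.09, Dnmt1 at 1.03 and 1.11, and Dnmt3l at 1.07 and 1.08. Dnmt3b was at 0.993 in control and 1.23 in sonKD, on a mean of about 0.1 UMI per cell. Without thinning, 1312 of 4978 control cells and 1135 of 2731 sonKD cells held at least 5 UMIs of Tet1, up to 23 and 29 in a single cell.

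Dnmt1 lies on chromosome 9 at 20907209 to 20959888, minus strand, with 39 annotated exons (GRCm38, GENCODE M21), and Uhrf1 on chromosome 17 at 56303321 to 56323486, plus strand, with 17. Both encode partners of 1 reaction and were lower together, so their promoters were read for E2F-type letters, the motif class known from many genes of DNA replication. The RefSeq table (GRCm38.p6) gave 15 windows for the 8 members, each from 250 bases before to 50 after an annotated start. Searched were TTTCCCGC, TTTCGCGC, TTTGCCGC and TTTGGCGC on both strands, letters picked with earlier results of these data known. A match occurred in 1 of 3 Dnmt1 windows, in 1 of 2 Uhrf1 windows and in none of the windows of the other 6 genes. Of all 32851 promoters in the table, 744 (2.26%) held a match. The windows with a match are shown 5′ to 3′ on the gene's strand, with the matching letters in capitals.
Dnmt1, chr9:20952574-20952873, minus strand: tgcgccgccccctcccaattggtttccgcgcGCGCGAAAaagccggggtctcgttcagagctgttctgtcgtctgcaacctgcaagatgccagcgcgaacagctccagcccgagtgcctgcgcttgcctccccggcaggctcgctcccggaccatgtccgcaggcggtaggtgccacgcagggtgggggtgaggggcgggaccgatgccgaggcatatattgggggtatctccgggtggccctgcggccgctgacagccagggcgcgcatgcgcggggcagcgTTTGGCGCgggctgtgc
Uhrf1, chr17:56304063-56304362, plus strand: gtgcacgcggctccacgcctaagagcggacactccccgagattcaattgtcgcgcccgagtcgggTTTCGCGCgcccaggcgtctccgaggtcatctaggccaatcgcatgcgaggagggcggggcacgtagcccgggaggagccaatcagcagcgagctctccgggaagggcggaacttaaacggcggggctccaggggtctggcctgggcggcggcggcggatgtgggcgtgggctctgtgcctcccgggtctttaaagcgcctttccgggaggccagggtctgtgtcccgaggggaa
The Dnmt1 matches began at position -219 (GCGCGAAA) and at position 34 (TTTGGCGC) relative to the annotated start of that window, and the Uhrf1 match (TTTCGCGC) at -185. In both genes this start lies downstream of every other start in the table, and which start the cells used was not measured. Each window with a match held 33 CpG dinucleotides, against a median of 7 over all promoters. Every motif searched contains a CpG, and the 2.26% of all promoters was not matched for CpG content. A match describes letters only and no binding was measured. The part of these letters in the lower levels of the pair was not tested.

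Uhrf1 had a clear relation to the cell cycle, and Dnmt1 had a different one. Each library was split at its medians of an S score and a G2/M score, made from replication and mitosis genes that include no member. This gives 4 ranges of cells: high in S only, high in both, high in G2/M only, and low in both. The ranges are cuts through a continuum, not cell types, and 15.5% of control and 15.4% of sonKD cells lay within 0.1 SD of a cut. Mitosis genes kept out of the scores had a median log2 ratio of G2/M range over S range of 0.72 in control and 0.69 in sonKD. Replication genes kept out of the scores had medians of -0.18 and -0.17, so the split separated G2/M more sharply than S. Median UMIs per cell ran from 6954 to 8340 over the control ranges and from 10020.5 to 12550.5 over those of sonKD, lowest in the range low in both scores.

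In control, Uhrf1 was at 177 CPM (169 to 186) in the S range, 178 in the range high in both, 144 (137 to 151) in the G2/M range and 134 in the range low in both. In sonKD the same ranges gave 125 (117 to 133), 120, 94.4 (88.0 to 101) and 78.7 CPM. The S range and the range high in both did not differ beyond their intervals in either library, and both lay above the G2/M range. The log2 ratio of G2/M over S was -0.30 (-0.40 to -0.20) in control and -0.41 (-0.54 to -0.27) in sonKD. Only 2.16% of the 7972 genes outside the scores had a lower ratio in control, and 0.84% in sonKD. Past 1.3-fold, 0.903% of genes were lower in G2/M in control and 1.12% in sonKD, while 3.5% and 3.69% were higher. None of the 8 members was lower past that mark in control, and 1 was in sonKD (Uhrf1); none was higher in either library. That single call in sonKD was lost under 2 alternatives: cell cycle phases by the scanpy rule, and removal of likely doublets.

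Dnmt1 differed little between the S and G2/M ranges. It was at 186, 197, 191 and 159 CPM in control, in the order S, high in both, G2/M and low in both. In sonKD the values were 138, 142, 131 and 107 CPM. In both libraries the range low in both scores lay below the other 3 ranges, whose intervals overlapped. The log2 ratio of G2/M over S was 0.04 (-0.05 to 0.13) in control and -0.07 (-0.19 to 0.05) in sonKD.

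**Figure D2:**
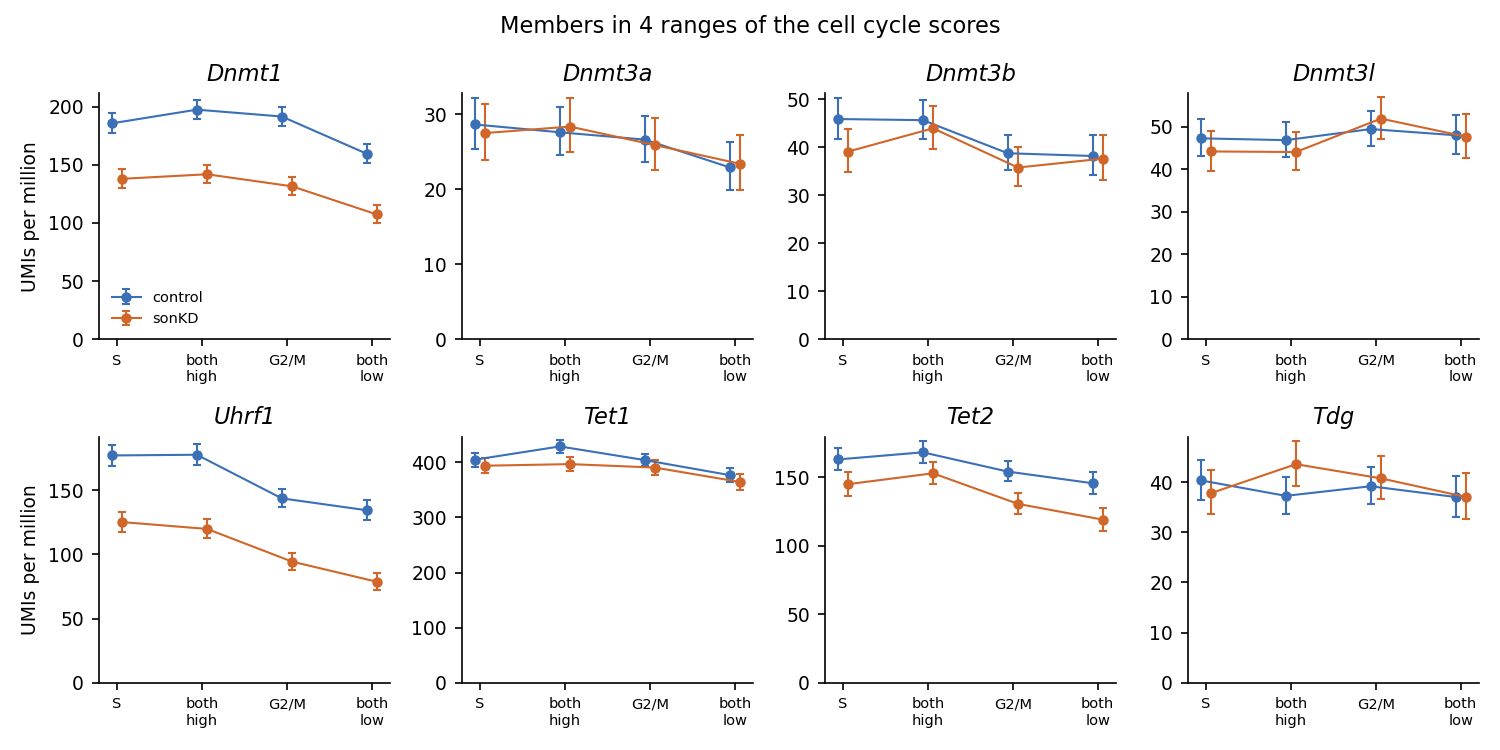
Level of each member (CPM, 1 panel per gene) in the 4 cell cycle ranges of control and sonKD, with 95% counting intervals. Uhrf1 is at 177 and 178 CPM in the control ranges high in S and at 144 and 134 CPM in the other ranges, and the sonKD points of Dnmt1 and Uhrf1 lie below the control points in every range.

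The lower levels in sonKD were present in each range. For Uhrf1 the log2 ratio of sonKD over control was -0.50 (-0.61 to -0.39) in the S range, -0.57 in the range high in both, -0.61 in the G2/M range and -0.77 (-0.92 to -0.63) in the range low in both. For Dnmt1 these ratios were -0.43, -0.48, -0.54 and -0.57, with an interval of -0.54 to -0.32 in S and -0.70 to -0.44 in the low range. Medians over all genes were between -0.11 and -0.12 in the 4 ranges. The point values of both genes were thus farthest from 0 in the range low in both scores, and the intervals of the S range and that range overlapped for Dnmt1 but not for Uhrf1. Ranges were cut at each library's own medians, so equal names do not ensure equal cycle positions.

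Among the other members, Dnmt3b was at 45.9 CPM in the S range and 38.7 CPM in the G2/M range of control, a log2 ratio of -0.24 (-0.44 to -0.05). In sonKD it was at 39.1 and 35.8 CPM, a ratio of -0.13 (-0.36 to 0.11) that was not distinguishable from 0 at this depth. Dnmt3l was at 47.3 and 49.4 CPM in the S and G2/M ranges of control and at 44.2 and 51.9 CPM in those of sonKD, where the ratio was 0.23 (0.03 to 0.44). Tet2 was at 163 and 154 CPM in control, and at 145 and 131 CPM in sonKD with a ratio of -0.15 (-0.27 to -0.03). Tet1 was at 405 and 404 CPM in control and at 394 and 390 CPM in sonKD, so its level was nearly the same in S and G2/M. Its lowest level, like that of Tet2, was in the range low in both scores, at 377 and 364 CPM for Tet1 and 146 and 119 CPM for Tet2. For Dnmt3a (22.9 to 28.6 CPM over all 8 values) and Tdg (37.0 to 43.6 CPM) the intervals of all ranges overlapped within each library.

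The genes most like the 4 members with a mean of at least 50 CPM were chosen by Pearson r of log2 CPM over the 8 points of 4 ranges in 2 libraries, among 3129 genes. These points come from only 2 libraries, so r mixes the library difference with the cycle. For Dnmt1 the most alike were Eif2b5 (r = 0.996), 2610507B11Rik (0.992) and Prelid1 (0.991), and for Uhrf1 they were Lyar (0.996), Stip1 (0.990) and Ankrd28 (0.988). For Tet1 they were Smc6 (0.981), Tomm70a (0.980) and Chchd3 (0.971), and for Tet2 they included Schip1 (0.993) and Syncrip (0.992). None of these genes is another member.

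The TET genes and the de novo genes ran in opposite directions along a score of the pluripotency state. Cells of each library were put in 3 equal tiers by a score of naive genes minus formative genes, with no member in either list. Naive genes included Esrrb, Klf4 and Tfcp2l1, and formative genes included Utf1, Otx2, Fgf5 and Pou3f1. The formative genes marked the tiers unevenly. Log2 ratios of naive over formative tier in control and sonKD were -0.53 and -0.36 for Utf1 and -0.70 and -0.78 for Pou3f1. For Otx2 they were -0.43 and 0.02 (-0.37 to 0.42), and Fgf5 was at no more than 0.189 CPM in any tier. The formative tier is thus named by the score alone. From the formative to the naive tier, Tet2 was at 130, 157 and 187 CPM in control and at 116, 137 and 159 CPM in sonKD. Its log2 ratio of naive over formative tier was 0.52 (0.44 to 0.61) and 0.46 (0.35 to 0.56). Tet1 was at 358, 404 and 451 CPM in control and at 361, 376 and 424 CPM in sonKD, with ratios of 0.33 (0.28 to 0.39) and 0.23 (0.17 to 0.30). For both genes the naive tier was the highest in both libraries.

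Dnmt3a was at 28.7, 27.6 and 23.5 CPM from the formative to the naive tier in control and at 29.6, 25.5 and 24.2 CPM in sonKD, with ratios of -0.29 (-0.50 to -0.07) and -0.29 (-0.53 to -0.05). Dnmt3l was at 53.0, 46.6 and 44.2 CPM and at 50.4, 47.1 and 43.5 CPM, with ratios of -0.26 (-0.42 to -0.10) and -0.21 (-0.39 to -0.03). Dnmt3b was at 44.1, 43.0 and 39.4 CPM in control, a ratio of -0.16 (-0.33 to 0.01), and at 43.6, 39.2 and 34.8 CPM in sonKD, a ratio of -0.32 (-0.52 to -0.12). All 3 de novo genes thus had their lowest level in the naive tier of both libraries, although intervals of neighbouring tiers overlapped. Dnmt1, with ratios of 0.02 and 0.06, and Tdg, with -0.03 and 0.08, differed little between the tiers. Uhrf1 had ratios of 0.11 (0.03 to 0.20) in control and -0.0058 (-0.13 to 0.12) in sonKD.

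Past 1.3-fold, 5.54% of 8047 genes were higher in the naive tier in control and 3.48% in sonKD, and 0.857% and 0.833% were lower. In each library 1 member was higher past that mark (Tet2) and none was lower. With at most 5% mitochondrial UMIs per cell the Tet2 ratio in control was 0.36, short of the mark. The share of Malat1, an abundant nuclear RNA, moved with the tiers: it was 0.218%, 0.255% and 0.318% of UMIs in control and 0.186%, 0.215% and 0.256% in sonKD. Mitochondrial UMIs ran from 3.70% to 3.98% in control and from 4.09% to 4.33% in sonKD. Their part in the TET ratios was not tested.

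**Figure D3:**
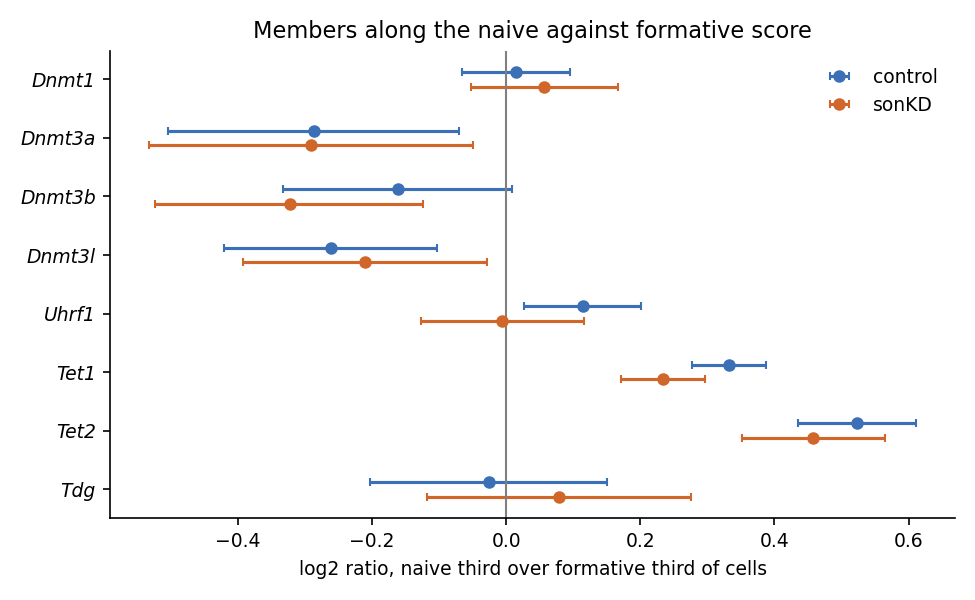
Log2 ratio of the naive over the formative tier for each member (1 row per gene), in control and sonKD, with 95% counting intervals and a vertical line at 0. Tet2 (0.52 and 0.46) and Tet1 (0.33 and 0.23) lie to the right of 0 in both libraries, and Dnmt3a, Dnmt3b and Dnmt3l lie to the left, with the control interval of Dnmt3b reaching past 0.

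A wider list of 66 genes of the pathway put the members in context. Of these, 43 averaged 10 CPM or more. In sonKD 6 of the 43 (14.0%) were lower past 1.3-fold, against 6.02% of all genes, and 1 was higher. Below 0 lay 32 of the 43, or 74.4%, about the 74.9% of all genes, and the median log2 ratio was -0.15 against -0.12 over all genes. With TMM factors 4 were lower past the mark, as were 2.90% of all genes, and Setdb1 and Xrcc1 fell short of it. Among the 10 maintenance partners, all measured at that level, none was lower past the mark. Cdca7, which recruits the remodeller HELLS to chromatin, was the single higher gene: 63.9 CPM in control and 94.1 CPM in sonKD, a log2 ratio of 0.56 (0.48 to 0.63). Hells itself was at 363 and 384 CPM, a ratio of 0.08 (0.05 to 0.12). Uhrf2, the paralogue of Uhrf1, was at 36.8 and 30.0 CPM, a ratio of -0.30 (-0.41 to -0.18). Cdca7 and Hells thus lay on the other side of 0 from Dnmt1 and Uhrf1, with which they share the maintenance of methylation. Most partners did not: 7 of the 10 (70%) lay below 0, against 74.9% of all genes. The median of the 10 was -0.18, against -0.12 over all genes.

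Of 8 measured de novo and targeting genes 2 were lower past the mark, and all 8 lay below 0, where 74.9% of all genes lay. Ehmt2, a histone H3 lysine 9 methyltransferase gene, was at 51.4 and 28.1 CPM, a log2 ratio of -0.87 (-0.99 to -0.76), and Setdb1, another such gene, was at 94.3 and 72.1 CPM, a ratio of -0.39 (-0.46 to -0.31). Prdm14, a repressor of the Dnmt3 genes in stem cells, was at 13.1 and 10.3 CPM, a ratio of -0.35 (-0.55 to -0.15). Dnmt3c, a rodent germline enzyme, had 1 UMI in control and 3 in sonKD. None of 4 measured readers passed the mark, and their median was -0.04.

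Among TET and partner genes, Idh2, whose mitochondrial enzyme makes the 2-oxoglutarate that TET enzymes use, was at 111 and 58.1 CPM, a log2 ratio of -0.94 (-1.01 to -0.86). It was the 1 of 6 measured genes of that list past the mark. Tet3, the third dioxygenase gene, was at 11.0 and 8.34 CPM, a ratio of -0.40 (-0.63 to -0.18), with a mean below the 10 CPM minimum. Dppa3, a protein known to keep UHRF1 off chromatin, was at 1.32 and 1.34 CPM, on 54 and 43 UMIs. In base excision repair, 2 of 7 measured genes were lower past the mark: Parp1, a sensor of strand breaks, at 686 and 482 CPM (ratio -0.51, -0.54 to -0.48), and Xrcc1, a repair scaffold, at 42.6 and 31.3 CPM (ratio -0.44, -0.56 to -0.33). Shmt2, an enzyme of mitochondrial one-carbon metabolism, was the 1 of 5 methyl donor genes past it, at 70.0 and 48.8 CPM (ratio -0.52, -0.61 to -0.43).

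Of 11 germline genes known for promoter methylation, 3 were measured at 10 CPM and none passed the mark in either direction. Sycp3, of the meiotic chromosome axis, was at 12.1 and 14.5 CPM, a log2 ratio of 0.27 (0.08 to 0.45). Ddx4, a germ cell helicase, was at 13.5 and 12.0 CPM with a ratio of -0.18 (-0.37 to 0.014), and Stk31 at 16.6 and 15.9 CPM with a ratio of -0.07 (-0.24 to 0.10). DNA methylation was not measured.

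**Figure D4:**
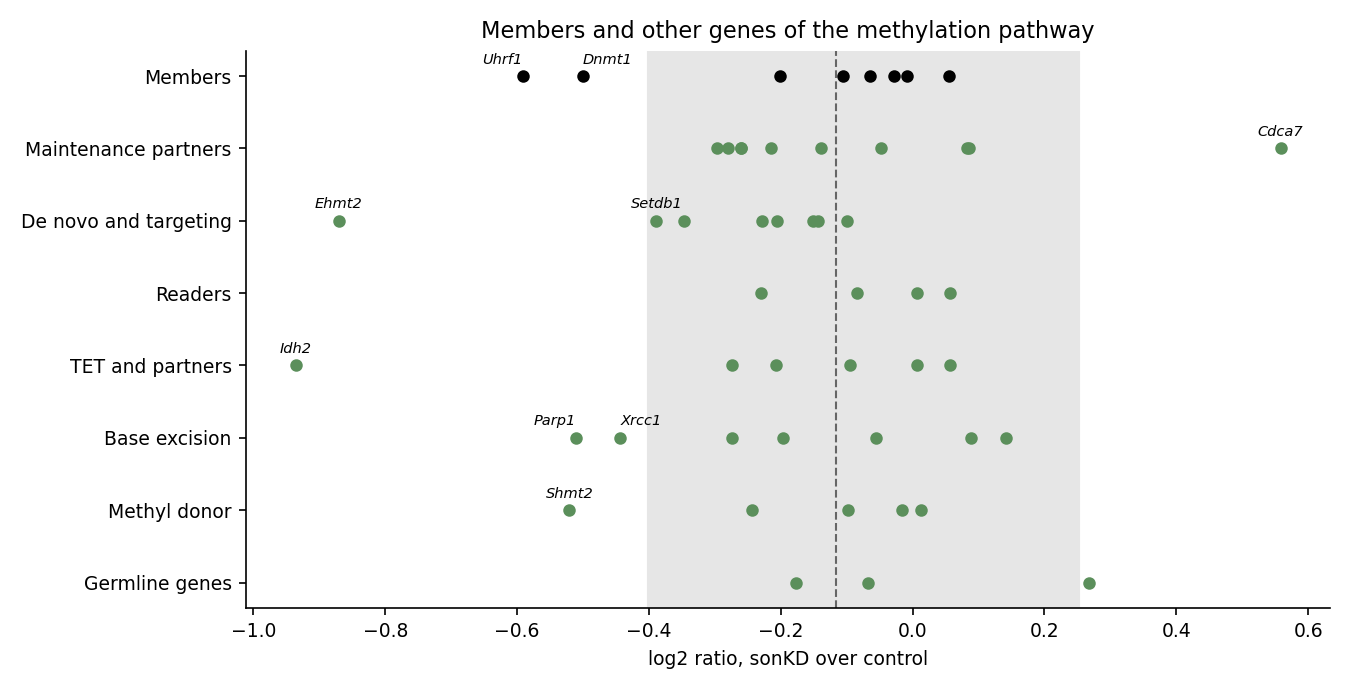
Log2 ratio of sonKD over control for the pathway genes that averaged 10 CPM or more, by list (1 point per gene), beside the 8 members, with the median (dashed line) and the middle 90% (grey band) of all genes. Idh2 (-0.94) and Ehmt2 (-0.87) lie farthest to the left, and Cdca7 (0.56) farthest to the right.

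Within the cycle, pathway genes lay on both sides of 0. Of 43 measured, 26 were above 0 in control and 18 in sonKD, with medians of 0.04 and -0.02. Of all 7972 genes outside the scores, 4240 were above 0 in control and 4242 in sonKD, with medians of 0.011 and 0.012. Of the 10 maintenance partners, 5 were above 0 in control and 2 in sonKD. Uhrf2 was at 0.24 (0.03 to 0.44) in control but at -0.0027 (-0.26 to 0.26) in sonKD. Some genes of the pathway list lay on the side of Uhrf1. For Pclaf, a PCNA-bound factor, log2 ratios of the G2/M range over the S range were -0.30 in control and -0.45 in sonKD. Ung, a uracil glycosylase of base excision and not a maintenance partner, gave -0.41 and -0.38. Pcna, the replication clamp, gave -0.20 and -0.19, and Hells -0.24 and -0.11. These 4 and the Uhrf2 values were named after they were seen. Past 1.3-fold, 1 of the 43 was lower and 1 was higher in each library, where 0.903% and 1.12% of all genes were lower and 3.5% and 3.69% were higher.

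RNA outside cells bore on some members more than on others. Barcodes with 100 to 500 UMIs, which mostly hold free RNA, gave 42.8 CPM of Dnmt3l in control and 39.2 CPM in sonKD, or 89.3% and 83.4% of the level in cells. For Tdg these shares were 67.9% and 49.9%, and for Dnmt3a 44.1% and 48.5%. For Uhrf1 they were 41.9% and 28.7%, and for Dnmt3b 31.6% and 21.5%. For Tet1 they were 17.8% and 15.1%, for Tet2 19.5% and 16.4%, and for Dnmt1 25.4% and 19.8%. The ratio of level outside to level inside cells was thus highest for Dnmt3l and lowest for Tet1, and the amount of free RNA per cell was not estimated. Uhrf1 was at 66.4 and 30.2 CPM in these barcodes and Dnmt1 at 46.9 and 25.9 CPM, log2 ratios of -1.14 and -0.86. Other members were lower in sonKD outside cells as well: Dnmt3b at -0.66 (-0.96 to -0.37), Tet2 at -0.45, Tdg at -0.39 and Tet1 at -0.30. Over all 8063 genes the median there was -0.24, with 32.0% lower past 1.3-fold and a middle 90% of -0.82 to 0.26. A lower level outside cells was thus not particular to the pair. Among the members, however, only Uhrf1 and Dnmt1 lay below that middle 90%.

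In GRCm38 the remaining members lie on chromosome 12 at 3806007 to 3914443 (Dnmt3a), chromosome 2 at 153649450 to 153687730 (Dnmt3b), and chromosome 10 at 78041947 to 78063622 (Dnmt3l), 62804570 to 62908996 (Tet1) and 82629828 to 82650799 (Tdg). Tet2 is on chromosome 3 at 133463679 to 133545139. Genes on the opposite strand overlap 5 of them, and use of strand in counting is not given in the sources used here. The partner levels were low: Aire, beside Dnmt3l, was at 7.07 and 6.46 CPM, Gm42567, beside Tet2, at 1.98 and 2.68 CPM, and Glt8d2, beside Tdg, at 0.465 and 0.250 CPM. Dnmt3aos had no UMI and Dnmt3bos had 0 and 2.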

How the data were processed

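Single-cell 3′ RNA-seq was made from 1 control and 1 sonKD library, grouped by sample title. The authors deposited raw UMI counts per gene and barcode, as whole numbers and for all barcodes. Per the submitters' processing notes, Cell Ranger 7.1.0 and the mm10 build were used. The counting of intronic reads is not given in the sources used here. Cells were chosen by the limits in the report (Python 3.11.15, scanpy 1.11.5), with no doublet removal. UMIs in cells came to 40902904 in control and 32032551 in sonKD, or 57.6% and 53.1% of all UMIs, and were summed per library and divided by the total to give CPM. Counts below 3 were set to 3 in ratios. The 95% intervals were exact: Poisson for levels, Clopper-Pearson for shares, and the conditional binomial for ratios. The ratio step was tested on simulated data.

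Cell cycle and pluripotency scores used cells thinned to 2500 UMIs and a fixed random seed. The S and G2/M lists were the usual human gene lists in mouse symbols, without members or genes of the pathway list. The naive and formative lists, of 10 genes each, were put together for this report. Alternatives covered scaling (including TMM factors from edgeR 4.0.16), cell minimums, doublet removal, thinning and phase rules. All 8 members were named, with every pathway gene of at least 10 CPM past 1.3-fold, Tet3, Dppa3, Prdm14, Uhrf2, Hells and Cdca7, the 3 genes most like each member of at least 50 CPM, and Son. Of the genes most alike, 1 is not reported here. Other genes were named after their values were seen. The members, lists and tests were chosen with earlier results of these data known. Of the 32285 gene identifiers, 32235 occur in GENCODE M21, whose GRCm38 coordinates are given.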

Additional observations from a re-analysis of the deposited data

Results flagged for a closer look

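Barcodes past the UMI and gene minimums with over 10% mitochondrial UMIs were left out of all comparisons, 625 in control and 1056 in sonKD. Tet1 was at 671 CPM in such barcodes of control and 560.5 CPM in those of sonKD, both above the 405 CPM of control cells. Tet2 was at 223 CPM in such barcodes of control, above the 158 CPM of control cells. These values drew attention because they lie above the level of control cells in data that no comparison used. In such barcodes of sonKD, Tet2 was at 166 CPM (153 to 180), above the 138 CPM of sonKD cells. Malat1 took 1.32% of UMIs in these barcodes of control and 0.896% in those of sonKD, against 0.263% and 0.219% in cells, and Son was at 302 and 187 CPM. Dnmt1 was at 137 and 109.5 CPM there and Uhrf1 at 106 and 68.1 CPM, below the levels in cells of their own library. The part of mitochondrial share and Malat1 in these levels was not tested.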

How the results depend on the processing

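Each group held 1 library, so all values describe these libraries. The siRNA cannot be told apart from any other difference between the libraries, such as culture. The instrument used for each library was not settled. No paired analysis was possible because each group has a single sample and no spread is left to fit. Over the alternatives the log2 ratio of sonKD over control stayed between -0.52 and -0.41 for Dnmt1 and between -0.61 and -0.50 for Uhrf1. TMM factors raised the median of all genes by 0.09, to -0.03, and 234 genes were lower past 1.3-fold instead of 485. With them the median of the members was 0.0050 instead of -0.085, the Tet1 ratio 0.026 instead of -0.064, and the median of the pathway list -0.061 instead of -0.15. Without mitochondrial and ribosomal protein genes the Tet1 ratio was 0.0070. With no minimum level, 4 pathway genes were higher past 1.3-fold instead of 1.

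The count of members lower in G2/M past 1.3-fold was 1 instead of 0 in control with thinning to 5000 UMIs, which left out 514 control and 172 sonKD cells. In sonKD it was 0 instead of 1 with phases by the scanpy rule and 0 with doublets removed. The Uhrf1 ratio of G2/M over S stayed between -0.44 and -0.22 in control and between -0.54 and -0.32 in sonKD. Between the tiers of the naive score, alternatives were added after seeing the data. Thinning to 5000 UMIs gave 1 member lower past the mark in control and 2 in sonKD instead of 0. At most 5% mitochondrial UMIs gave 0 higher instead of 1 and 1 lower instead of 0 in control. Doublet removal gave 1 lower in sonKD instead of 0, and a Uhrf1 ratio in control of -0.00028 instead of 0.11. Without thinning, 6 members had a higher share of cells in sonKD instead of 0. Shares over all genes were not counted for the alternatives of this paragraph, so their counts are not read as results about the members. Scrublet called 0.0603% of control and 0.0366% of sonKD cells as doublets, too few to be a working call, so 3.98% and 2.20% were removed by score rank. The causes of these changes were not tested. Ratios of Dnmt3a, Dnmt3b, Dnmt3l and Tdg rest on 846 to 1960 UMIs per library, and differences inside their intervals were not detectable at this depth.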

Other observations

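A small set of cells carried much of the highest Dnmt3b counts. At least 5 Dnmt3b UMIs were found in 6 control and 9 sonKD cells, with up to 7 and 15 UMIs. After these cells were seen, 4 genes were chosen: S100a6, Sfn, Lgals1 and Krt18, a keratin of simple epithelia. The 5% of cells with most thinned UMIs of those 4 genes were then set beside all other cells. They were 249 control and 137 sonKD cells, with ties at the limit of 3 and 5 UMIs. Of the 6 and 9 cells, 3 and 5 belonged to this set. Dnmt3b was at 79.7 CPM in these cells and 40.4 CPM in the others of control, a log2 ratio of 0.98 (0.73 to 1.22). In sonKD it was at 109.8 and 35.7 CPM, a ratio of 1.62 (1.38 to 1.86). Past 1.3-fold, 7.34% of genes were higher in the set in control and 14% in sonKD, and 12.6% and 14.3% were lower.

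Dnmt3l was also higher in the set, at 71.1 against 46.8 CPM in control and 73.4 against 45.7 CPM in sonKD, ratios of 0.60 (0.34 to 0.86) and 0.68 (0.39 to 0.96). Dnmt3a, the remaining de novo gene, lay on the other side, with ratios of -0.47 (-0.99 to 0.01) and -0.48 (-1.07 to 0.05). Uhrf1 had ratios of -0.48 (-0.68 to -0.28) and -0.07 (-0.32 to 0.16), and Tdg of -0.12 (-0.50 to 0.24) and -0.58 (-1.07 to -0.13). The TET genes were lower: Tet2 was at 107 against 161 CPM and at 88.0 against 140.0 CPM, and Tet1 had log2 ratios of -0.33 and -0.39. Nanog, a naive-state factor, had ratios of -0.44 and -0.88. Zfp42, another gene of the naive score, had -0.09 and -0.31, and Pou5f1, the general stem cell factor, had 0.08 and -0.03. Median UMIs per cell were 7021 against 7763 in control and 10918 against 11633.5 in sonKD. The set was chosen on these values, so it supports no test, and no cell type is assigned to it.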
